A study of Mus musculus with 6 samples.

Results

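Resting capillary endothelial cells of mouse quadriceps muscle were described in uninjured muscle and 7 days after a smaller and a larger excision injury. A barcode was a member if it had at least 500 gene UMIs (unique molecular identifiers, counted mRNA molecules) and at least 2 UMIs from the endothelial genes Pecam1, Cdh5, Egfl7 and Cldn5. It also had at least 3 UMIs from the capillary genes Timp4, Car4, Car8 and Gpihbp1, and at most 2 from the macrophage genes C1qa, C1qb and Tyrobp. At most 1 UMI from Gja5, Hey1, Sema3g and Stmn2 (arterial), at most 2 from Selp, Ackr1, Vwf and Lrg1 (venous), and at most 1 from Aplnr, Prnd, Col15a1 and Fam167b (sprouting) was allowed. This rule found 877 of 8427 barcodes in the 3 libraries: 654 from uninjured, 92 from the subcritical and 131 from the critical injury group. Members were thus chosen by their measured UMI counts of these genes, and the genes of the rule are described below but not tested as findings. The 1710 barcodes that passed the endothelial and macrophage limits but not the others are called other endothelial cells.

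The study asked how muscle responds to volumetric muscle loss, an injury in which a piece of muscle is cut out and not fully replaced. All animals were male wild-type C57BL/6 mice of 2 to 3 months. The uninjured group served as naive controls, the subcritical group had a 2 mm defect and the critical group a 3 mm defect, both in the left quadriceps and sampled on day 7. Whole left quadriceps were digested, the cells of each of 4 animals per group were tagged with a hashtag antibody, and each group was then pooled, stained with an antibody panel and made into 1 library for 5′ single-cell RNA and surface protein counting. Group, pool, staining tube and library therefore cannot be told apart. The muscle outside the defect was digested with it, so an injured library mixes cells near to and far from the cut.

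Capillaries of skeletal muscle are lined by a continuous endothelium that passes oxygen, water, glucose and fatty acids to the fibres. Lipoprotein lipase is held on their inner surface by Gpihbp1, the fatty acids it frees are taken up through Cd36, and the binding proteins Fabp4 and Fabp5 carry them through the cell. Under steady flow these cells rarely divide and express the flow-induced factors Klf2 and Klf4. During angiogenesis some of them leave this state, lay down basement membrane collagens and form sprouts.

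Each animal was recognised by the 15-base barcode of its hashtag antibody, and each surface protein by the barcode of its antibody. The 4 hashtags, and the 3 panel antibodies whose counts differed between groups, are shown with their whole barcode in capitals.
Hashtag_1: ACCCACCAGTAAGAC
Hashtag_2: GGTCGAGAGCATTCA
Hashtag_3: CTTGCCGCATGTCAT
Hashtag_4: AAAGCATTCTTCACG
CD200: TCAATTCCGGTAGTC
CD326: ACCCGCGTTAGTATG
Ly-51: TCCGTTTGTTGTTGT

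Members had a median of 1416 UMIs in the uninjured, 877.5 in the subcritical and 906 in the critical library, against 2120, 1099 and 1360 in other endothelial cells. No member had over 20% mitochondrial UMIs, the highest share being 2.60%. The uninjured and subcritical libraries shared 16 barcodes, the uninjured and critical 10 and the subcritical and critical 16, of which 1, 0 and 0 belonged to members of both libraries. A single hashtag was assigned to 358, 34 and 44 members (54.7%, 37.0% and 33.6%), and 16, 1 and 0 carried several. Counts were summed per animal, as counts per 1000000 gene UMIs (CPM) of its members, for animals with at least 10 members. These were uninjured animals 1 to 4 (17, 201, 73 and 67 cells), subcritical animals 2 and 4 (12 and 14) and critical animals 2 and 4 (22 and 22). A single UMI in an injured animal was worth 42.0 to 67.6 CPM, so that low genes could not be compared there.

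The label was checked against the defining genes, as a description only, since the rule used them. Gpihbp1 had 3557, 3464 and 3352 CPM in the uninjured, subcritical and critical members, and 96.3%, 100% and 100% of them held a UMI of it. Timp4, an inhibitor of matrix metalloproteinases, had 2408, 858 and 895 CPM, and was found in 88.1%, 52.2% and 48.1% of members. The carbonic anhydrase Car4 had 517, 317 and 195 CPM and its relative Car8 had 511, 225 and 310 CPM. Car4 was found in 42.7%, 23.9% and 17.6% of members and Car8 in 48.5%, 21.7% and 27.5%. In uninjured cells outside the endothelial limits the levels were 45.8 CPM for Gpihbp1, 83.3 for Timp4, 3.85 for Car4 and 10.5 for Car8. All 4 defining genes were thus present in each group, though Car4 and Car8 each in a minority of its members. Gpihbp1 gave the largest part of the capillary UMIs in the injured members. Of barcodes within all other limits, 44, 44 and 52 had 2 capillary UMIs and fell just outside, and 54, 27 and 33 had 3 and fell just inside.

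Markers of other cell types were read beside every result. Transcripts of 12 macrophage genes summed to 38.3, 368 and 606 CPM in uninjured, subcritical and critical members, with Adgre1 at 0 in the first, Csf1r, Mrc1, Adgre1 and Ptprc at 0 in the second and Cd14 and Ccl6 at 0 in the third. Those of 12 fibroblast genes summed to 694, 2769 and 7215 CPM, of which the 5 richest cells of each group held 82.7%, 79.7% and 89.6%. For 12 mural cell genes (pericytes and smooth muscle) the sums were 1555, 909 and 424 CPM, and for 12 muscle fibre genes 101, 71.5 and 67.3 CPM. Red cell genes were at 25.5, 0 and 0 CPM and lymphatic genes at 89.3, 30.7 and 478 CPM, the last with 94.4% of its UMIs in 5 cells. In total 24, 9 and 13 members (3.67%, 9.78% and 9.92%) held 5 or more UMIs of the macrophage, fibroblast and mural lists together, here called mixed droplets, and they gave 6.67%, 14.9% and 22.7% of all member UMIs. Of the 26 genes called in subcritical against uninjured members 9 were still called without them, and of the 11 in critical against uninjured members 7. Postn could not be tested, and each lost call is given below with its adjusted p.

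**Figure D1:**
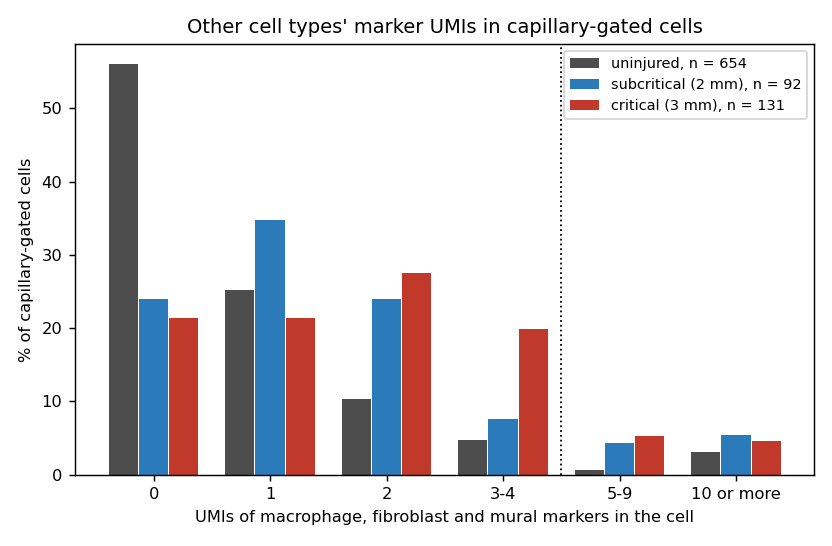
UMIs of macrophage, fibroblast and mural markers in a member (horizontal axis, in classes) against the percent of members of each library (bars). To the right of the dotted line lie the mixed droplets, 3.67% of uninjured, 9.78% of subcritical and 9.92% of critical members.

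Cells that met the resting capillary rule made up a much smaller part of the endothelial cells recovered from injured muscle. This share is set by the UMI limits of the rule, so the tests on it use the rule's own values. They cannot tell fewer cells of this kind from lower counts of the capillary genes in the same cells. Members were 49.1% of endothelial barcodes in the uninjured library (95% exact Clopper-Pearson interval 46.4 to 51.9%, counting error only), 15.7% (12.9 to 18.9%) in the subcritical and 19.5% (16.6 to 22.7%) in the critical library. Among tagged cells the share was 77.3%, 66.8%, 58.9% and 58.3% in uninjured animals 1 to 4, between 20.7% and 25.8% in 3 subcritical animals, and 40% and 32.8% in 2 critical animals with at least 20 endothelial cells. No injured animal reached the lowest uninjured one. The other 3 injured animals (subcritical 3, critical 1 and critical 3) had 6, 2 and 12 tagged endothelial cells, 0 of them members, and are not in the means. The means were 65.3% ± 8.88 (SD, n = 4), 22.7% ± 2.74 (n = 3) and 36.4% ± 5.07 (n = 2). Tagged cells held a larger share of members than the whole libraries did. Members were 358 of 562, 34 of 160 and 44 of 136 tagged endothelial cells, against 654 of 1331, 92 of 585 and 131 of 671 in the uninjured, subcritical and critical libraries.

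The difference from uninjured was −42.6 percentage points in subcritical animals (two-sided exact permutation test, p = 0.0286, 0.0857 after Benjamini-Hochberg adjustment over the 3 comparisons) and −28.9 points in critical animals (p = 0.0667, adjusted 0.1). Critical animals lay 13.7 points above subcritical ones (exact permutation test, p = 0.1, adjusted 0.1), and over all endothelial cells of the libraries, tagged or not, the gap was 3.80 points. Each p was the smallest these numbers of animals can give, and none passed 0.05 after adjustment. As a share of all tagged cells, which also moves with the number of other cells, the difference was −46.6 points in subcritical and −46.3 points in critical animals (exact permutation test, adjusted p = 0.0429 for each). This last test held 4 animals per group, among them the injured ones left out of the means above, and likewise used the rule's own values.

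Depth moved with this share, since injured cells held fewer UMIs. After every endothelial cell was thinned to 1000 UMIs, which left out 21.6%, 46.5% and 38.2% of them for holding fewer, the shares were 58.1%, 14.8% and 16.8%. Under 3 capillary UMIs were found in 25.2%, 64.4% and 53.8% of endothelial cells. Of those with at least 3, 14.3%, 48.1% and 49.7% went over the sprouting limit. A smaller share of endothelial cells in the injured libraries thus reached 3 capillary UMIs, and a larger share of those that did went over the sprouting limit. The capillary gene Timp4 was also lower outside the members. It had 881, 114 and 130 CPM in other endothelial cells and 83.3, 10.8 and 12.4 CPM in non-endothelial cells of the uninjured, subcritical and critical libraries. Gpihbp1, Car4 and Car8 were lower in both kinds of cells too. The part of this in the smaller share was not tested.

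**Figure D2:**
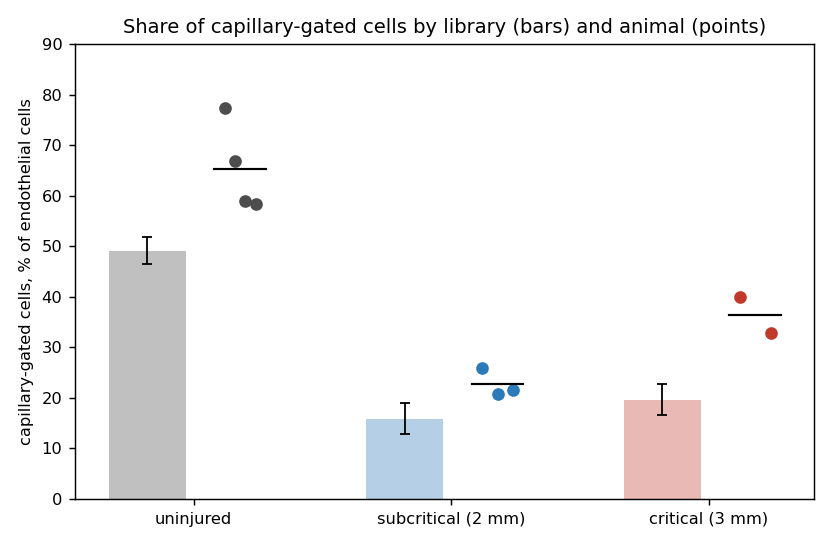
Resting capillary cells as a percent of endothelial cells, for each library (bars, with the exact 95% interval) and for the tagged cells of each animal (points, with the group mean as a line). Uninjured animals sit between 58.3 and 77.3%, all above the injured animals.

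Gene levels were compared in 675 genes that passed a filter on low counts, with edgeR's quasi-likelihood test over the 8 animals and Benjamini-Hochberg adjustment over all of them. In subcritical against uninjured members 11 genes were higher (1.63% of those tested) and 15 lower (2.22%). In critical against uninjured members 4 were higher (0.593%) and 7 lower (1.04%). Critical members differed from subcritical ones in 1 gene, Rps29, which was lower (0.148%). At an unadjusted p under 0.05 the numbers were 155, 112 and 66. DESeq2 called 13 higher and 6 lower, 4 higher and 6 lower, and 0 higher and 1 lower. The injured groups share the same uninjured animals, so that their values stand side by side and are not independent findings. Fabp4, Gng11, Gstm1, Serinc3 and Rps27 fell in both, and Sparc and Rpl10a rose in both. Rpl10a lost both calls without mixed droplets, and Gstm1 and Serinc3 the subcritical one. Over whole libraries, where untagged members also count and no replicate check exists, a log2 difference of at least 1 with at least 30 UMIs in the higher library was met by 19 of 5525 genes higher (0.344%) and 232 lower (4.2%) in the subcritical library. In the critical library 49 of 5539 were higher (0.885%) and 259 lower (4.68%), and between critical and subcritical 46 of 804 were higher (5.72%) and 15 lower (1.87%). The thinner injured libraries seldom reach 30 UMIs, which limits the genes that could be higher there. All of these calls rest on few animals: without subcritical animal 2, 0 genes were called in subcritical against uninjured members by edgeR (152 at an unadjusted p under 0.05), and without uninjured animal 2, 9. Without critical animal 2, 2 genes (Serinc3 and Rps27 held) were called in critical against uninjured members, 0 of them higher. Without critical animal 4 the number was 29, without either subcritical animal 17, and without uninjured animal 1 or 4 it was 7.

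Fatty acid handling genes were led by Fabp4, the intracellular fatty acid binding protein of capillary endothelium. Fabp4 had 37257, 23294, 19431 and 27926 CPM in uninjured animals 1 to 4, 5685 and 7502 in subcritical animals and 8403 and 12160.2 in critical animals. Every injured animal lay below every uninjured one. Its log2 fold change was −2.04 ± 0.27 (SE) in subcritical (edgeR adjusted p = 0.000581) and −1.38 ± 0.25 in critical members (adjusted p = 0.00972). Fabp4 lost its subcritical call without subcritical animal 2 and its critical call without critical animal 2. Fabp4 transcripts were also lower in other endothelial cells, at 18503, 4703 and 5229.5 CPM over the uninjured, subcritical and critical libraries, and in non-endothelial cells, at 727, 179 and 149 CPM.

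The scavenger receptor Cd36, which takes up long-chain fatty acids, had 2648, 2045, 1412 and 2419 CPM in uninjured, 1214 and 1149 in subcritical and 1597 and 1831 in critical animals. Both subcritical animals lay below all uninjured ones and the critical animals did not. Cd36 passed the test in neither (edgeR log2 −0.83 ± 0.27, adjusted p = 0.0849, and −0.28 ± 0.23, adjusted p = 0.641). Lpl, the lipase itself, had 457, 432, 476 and 832 CPM in uninjured, 276 and 67.6 in subcritical and 378 and 563 in critical animals, with no call. Fabp5 had 1463, 2115 and 1642 CPM over the whole uninjured, subcritical and critical libraries. By animal it had 3417.7, 1167.5, 943.9 and 2209.5 CPM in uninjured, 2042.3 and 2027.6 in subcritical and 1764.7 and 2629.2 in critical animals. Every injured animal thus lay within the uninjured range.

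Caveolae are flask-shaped pits of the capillary membrane, and Cavin1 is one of their coat proteins. Cavin1 had 890.5, 1221, 844 and 1091 CPM in uninjured, 331 and 541 in subcritical and 798 and 892 in critical animals. It fell in subcritical members (edgeR log2 −1.28 ± 0.31, adjusted p = 0.0401, and 0.0798 without mixed droplets), and 1 of the 2 critical animals lay within the uninjured range. Cav1, the main caveolar membrane protein, had 2719.7, 2551, 2193 and 2545 CPM in uninjured, 1214 and 2366 in subcritical and 1681 and 1549 in critical animals, with no call against either. Tcf15, a partner of Meox2 in the control of capillary fatty acid uptake, had 1763 CPM in the uninjured, 1216 in the subcritical and 976 in the critical library. By animal it had 1901.4, 1944.9, 1135.5 and 1810.9 CPM in uninjured, 1435.1 and 1216.5 in subcritical and 1344.5 and 1408.5 in critical animals. Uninjured animal 3 lay below every injured animal, and both tagged critical animals lay above the value of their library.

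Of 31 genes fixed for fatty acid uptake and handling, 24 had enough UMIs for a library value, and 16 of these were lower in the subcritical and 17 in the critical library. Their median log2 difference was −0.56 and −0.63, beside −0.18 and −0.11 for the 6183 genes so measured. Most of these 6183 genes were lower too, 3673 in the subcritical and 3588 in the critical library, and 2509 and 2595 were higher. The counts of lower or higher genes in this and every list below are to be read beside that background. In the fit 2 of 13 tested genes (Fabp4 and Cavin1) fell in subcritical and 1 (Fabp4) in critical members, and 0 rose.

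Transport genes were led by Aqp1, the water channel of continuous capillaries. Aqp1 had 5608, 6987, 5053 and 5747 CPM in uninjured, 1766 and 3244 in subcritical and 2815 and 3756 in critical animals, and no injured animal reached an uninjured one. The log2 fold change was −1.26 ± 0.23 in subcritical members (edgeR adjusted p = 0.00764) and −0.83 ± 0.21 in critical members, which missed the threshold (adjusted p = 0.0613) and passed it without mixed droplets (adjusted p = 0.00375). Without subcritical animal 2 the subcritical call was lost (adjusted p = 0.124). Over the libraries Aqp1 was also lower in other endothelial cells (2309, 1404 and 1256 CPM).

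Aqp7, which passes glycerol, had 674, 502, 256 and 573 CPM in uninjured, 166 and 203 in subcritical and 462 and 423 in critical animals, with no call. Slc28a2, a nucleoside transporter singled out after its values were seen, gave 285 UMIs in 199 uninjured members, 0 in the subcritical library, which allows up to 30.7 CPM (3 UMIs), and 13 in 11 critical members. Of 11 transporter genes with a library value 8 were lower in each injured library, with a median log2 difference of −0.76 in the subcritical and −0.41 in the critical library. Among 5 tested, 1 (Aqp1) fell in subcritical and 0 in critical members.

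**Figure D3:**
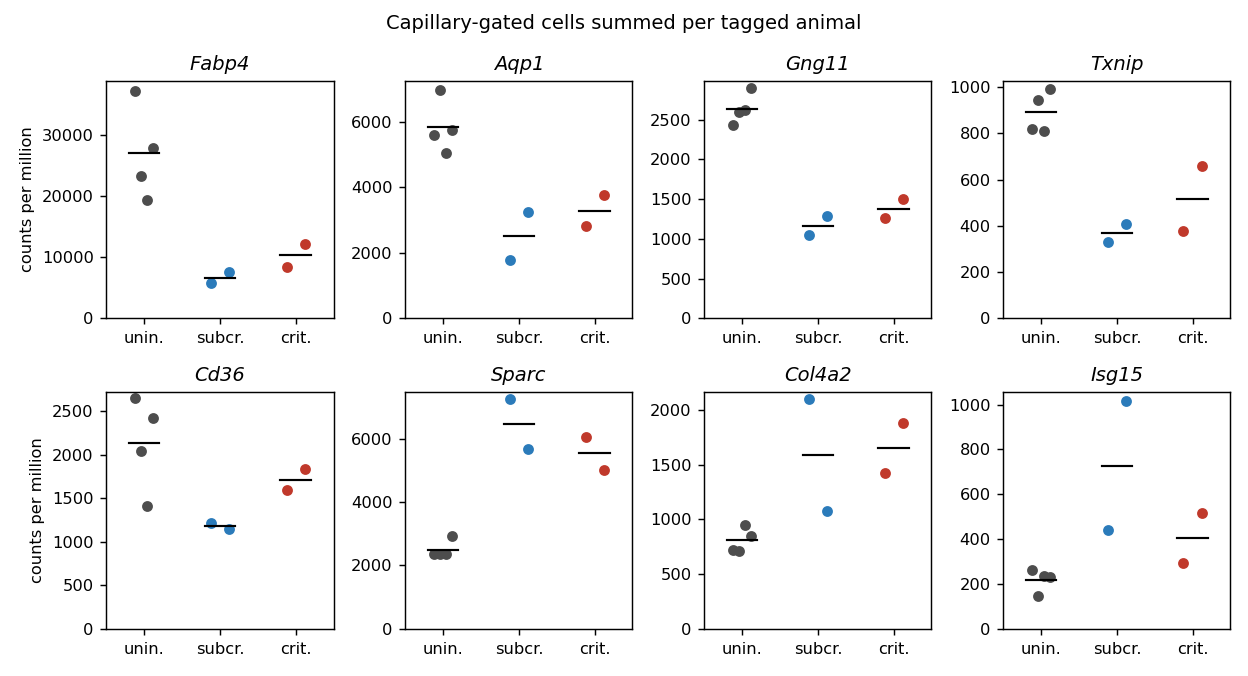
CPM of member cells summed per tagged animal (points) with the group mean (line) for 8 genes, on linear axes from 0. Fabp4, Aqp1, Gng11 and Txnip sit lower in every injured animal than in any uninjured one, and Sparc and Col4a2 higher.

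Among genes linked to flow and rest 1 passed the test. Txnip, a thioredoxin-binding brake on glucose uptake, had 818, 946, 809 and 993 CPM in uninjured, 331 and 406 in subcritical and 378 and 657 in critical animals. It fell in subcritical members (edgeR log2 −1.31 ± 0.31, adjusted p = 0.0353, and 0.178 without mixed droplets) and missed the threshold in critical members (−0.81 ± 0.25, adjusted p = 0.118). Klf2, the flow-induced transcription factor, had 1131, 1552, 1504 and 1559 CPM in uninjured, 1049 and 541 in subcritical and 420.2 and 1362 in critical animals, and was not called (adjusted p = 0.191 and 0.294). The cell cycle inhibitor Cdkn1c had 818, 819, 426 and 909 CPM in uninjured, 110.4 and 406 in subcritical and 420.2 and 751 in critical animals, also without a call. Of 24 genes of this list with a library value 21 were lower in the subcritical and 19 in the critical library, with medians of −0.72 and −0.38. In the fit, 1 of 10 tested genes fell in subcritical and 0 in critical members.

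Signalling and junction genes gave no calls. The VEGF receptor Kdr had 890.5, 1286, 1114 and 999.9 CPM in uninjured, 662 and 811 in subcritical and 1050.4 and 892 in critical animals (edgeR log2 −0.60 ± 0.27, adjusted p = 0.213 in subcritical members). Its decoy relative Flt1 had 1372, 2107, 1384 and 1545 CPM in uninjured, 1104 and 1284 in subcritical and 1302 and 1831 in critical animals. Over 22 genes of VEGF, angiopoietin and apelin signalling the library medians were −0.40 and −0.23, with 0 of 8 tested genes called in either comparison. Of 12 Notch pathway genes 11 were lower in each injured library (medians −0.54 and −0.50), and the 1 that could be tested was not called. Junction and barrier genes had medians of −0.21 and −0.31, with 0 of 12 called in either. Leukocyte adhesion and chemokine genes had medians of −0.01 and −0.04, with 0 of 10 called in either.

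Several other genes that fell have roles in metabolism and signalling. Gng11, a gamma subunit of heterotrimeric G proteins, had 2431, 2601, 2619 and 2895 CPM in uninjured, 1049 and 1284 in subcritical and 1260.5 and 1502 in critical animals. Its log2 fold change was −1.21 ± 0.19 (edgeR adjusted p = 0.00316) in subcritical and −0.93 ± 0.17 (adjusted p = 0.0105) in critical members. The narrow spread among uninjured animals was smaller than the gap to each injured group. Gng11 too lost its subcritical call without subcritical animal 2 and its critical call without critical animal 2.

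Serinc3, a membrane protein, had 1203, 1306, 1143 and 1139.7 CPM in uninjured, 497 and 743 in subcritical and 336 and 282 in critical animals. It fell by 0.99 ± 0.25 on the log2 scale in subcritical (edgeR adjusted p = 0.0434) and by 1.93 ± 0.27 in critical members (adjusted p = 0.00185). Without mixed droplets the subcritical call was lost (adjusted p = 0.0850). The critical call held without each animal in turn and the subcritical one did not (adjusted p up to 0.358). Critical animals lay below the subcritical ones, a difference that was not called (adjusted p = 0.509). Gstm1, a glutathione transferase, had 674, 786, 688 and 629 CPM in uninjured, 276 and 338 in subcritical and 168 and 235 in critical animals (log2 −1.21 ± 0.32, adjusted p = 0.0497, and −1.79 ± 0.32, adjusted p = 0.00911). The subcritical call of Gstm1 was lost without mixed droplets (log2 −0.98, adjusted p = 0.210). Gstm1 shares much of its sequence with the other Gstm genes, so that reads may have been split among them.

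The remaining genes that fell did so in 1 comparison each. In subcritical members these were Sult1a1, a sulfotransferase (746, 825, 525 and 489 CPM in uninjured against 110.4 and 0 CPM), Fmo1, a flavin monooxygenase (206 to 385 against 0 in both animals), Dab2ip, a Ras GTPase activating protein (277 to 378 against 55.2 and 0), Lims2, an integrin adaptor (688 to 1182 against 276 and 406), and Tcim (554 to 1173 against 166 and 406). Their edgeR adjusted p ran from 0.0194 for Sult1a1 to 0.0497 for Tcim. In whole libraries Sult1a1 had 632, 143 and 276 CPM and Fmo1 256, 102 and 135 CPM, so that neither was absent from subcritical members. Without mixed droplets the adjusted p of these 5 genes was 0.0551 for Sult1a1, 0.0667 for Fmo1, 0.0813 for Dab2ip and Lims2 and 0.0807 for Tcim. Laptm4a, a lysosomal membrane protein outside the rule for named genes, was the other gene that fell in subcritical members, with 844 to 1105 CPM in uninjured and 386 and 473 in subcritical animals (adjusted p = 0.0381, and 0.147 without mixed droplets). In critical members Snrpg, a splicing subunit, fell from 343 to 433 CPM in uninjured to 84.0 and 141 in critical animals (log2 −1.81 ± 0.42, adjusted p = 0.05 when rounded, just under the threshold, and 0.0789 without mixed droplets).

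Among matrix genes Sparc rose after both injuries. It is a collagen-binding glycoprotein that endothelial cells secrete when they remodel basement membrane. Sparc had 2359, 2376, 2349 and 2923 CPM in uninjured, 7231 and 5677 in subcritical and 6050.4 and 5024 in critical animals. Every injured animal was above every uninjured one. The log2 fold change was 1.36 ± 0.18 in subcritical (edgeR adjusted p = 0.000581) and 1.17 ± 0.18 in critical members (adjusted p = 0.00252), and 1.29 and 0.88 without mixed droplets (both still called). Without subcritical animal 2 it missed the threshold in subcritical members (adjusted p = 0.0751), and without critical animal 2 in critical members (adjusted p = 0.144). Non-endothelial cells held 4148, 5703 and 7536 CPM of Sparc over the libraries. The fibroblast sums of members, given above by library, were also higher in the injured libraries. By animal they were 48.1, 352, 4003 and 189 CPM in uninjured, 11481 and 541 in subcritical and 12437 and 986 in critical animals. Uninjured animal 3 thus lay above subcritical animal 4 and critical animal 4 in fibroblast transcripts and below both in Sparc. The part of fibroblast transcripts in the Sparc result was not tested beyond the removal of mixed droplets.

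The collagen IV chains form the network of the capillary basement membrane. Col4a1 had 1203, 1241, 1568 and 1356 CPM in uninjured, 1822 and 2433 in subcritical and 1849 and 2254 in critical animals, all injured ones above all uninjured ones. Col4a2 had 722, 712, 951 and 853 CPM in uninjured, 2098 and 1081 in subcritical and 1429 and 1878 in critical animals. Neither passed the edgeR threshold over all genes (Col4a1 adjusted p = 0.0811 and 0.116, Col4a2 0.0535 and 0.0597). Without mixed droplets both did in critical members (adjusted p = 0.0493 and 0.0143). Non-endothelial cells had less Col4a1 than members in every library (528, 424 and 407 CPM against 1516, 2708 and 2679).

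Of 27 matrix genes with a library value 18 were higher in the subcritical and 20 in the critical library, with median log2 differences of 0.37 and 0.49. In the fit, 1 of 14 tested (Sparc) rose in each comparison and 0 fell. Igfbp7, a secreted vascular matrix protein named after its values were seen, had 4517 to 6125 CPM in uninjured, 8335 and 8786 in subcritical and 7101 and 8216 in critical animals, and rose in subcritical members (edgeR log2 0.69, adjusted p = 0.0381). Members were limited to 1 UMI of 4 sprouting genes. A further 14 genes of the sprouting state that the rule did not use summed to 5765, 10515 and 11596 CPM, with a median log2 difference of 0.99 in the subcritical and 0.94 in the critical library over 9 genes. This list holds Sparc, Col4a1 and Col4a2. Plvap, the diaphragm protein of fenestrated and sprouting vessels, had 89.3, 286 and 666 CPM in members against 878, 1225 and 1243 CPM in other endothelial cells, and the 3 richest critical members held 64.7% of its UMIs there.

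Promoter sequence is shown for Aqp1, which fell, and Sparc, which rose, as the 250 bases before the RefSeq start in GRCm38.p6. Aqp1 lies at chr6:55336049-55336298 on the + strand and Sparc at chr11:55420081-55420330 on the − strand. Capitals mark CACCC on either strand, the core of the sites that Klf factors bind.
Aqp1: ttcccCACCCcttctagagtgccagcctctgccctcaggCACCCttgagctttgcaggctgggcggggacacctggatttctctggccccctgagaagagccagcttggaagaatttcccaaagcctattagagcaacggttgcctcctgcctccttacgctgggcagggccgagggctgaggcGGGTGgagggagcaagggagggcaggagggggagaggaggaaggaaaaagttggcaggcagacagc
Sparc: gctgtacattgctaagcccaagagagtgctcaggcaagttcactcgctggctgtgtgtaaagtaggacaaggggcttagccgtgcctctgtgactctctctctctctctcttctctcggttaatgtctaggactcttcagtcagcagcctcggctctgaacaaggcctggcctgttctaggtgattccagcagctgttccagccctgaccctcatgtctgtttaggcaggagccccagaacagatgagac
The Aqp1 window held 3 CACCC matches and the Sparc window 0. Other called genes went both ways. Of genes that fell, Cavin1 and Txnip held 2 each and Sult1a1 and Snrpg 0. Of genes that rose, Eef2 held 2, Isg15 1 and Igfbp7 and Eef1b2 0. A link between matches and direction was not tested. Of 32851 promoter windows of this length 52.01% held at least 1, so that a match is common. TATAAA (12.37% of windows), AGGTCA (14.02%) and ACAGGAAG (2.9%) were also searched on both strands and were found in neither window. An upstream sequence was found for 15 of the 22 called genes that code for no ribosomal protein. A match is a description of letters and not of binding.

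Lgals1, Isg15 and H2afz, from the cytoskeletal, interferon and proliferation lists, rose in subcritical members. Lgals1, the carbohydrate-binding galectin-1, had 192, 115, 263 and 154 CPM in uninjured, 1159 and 608 in subcritical and 504 and 282 in critical animals. It rose in subcritical members (edgeR log2 2.33 ± 0.44, adjusted p = 0.0118, and 0.0614 without mixed droplets) and was not called in critical ones (1.19 ± 0.49, adjusted p = 0.252). The difference between the injured groups was not called either (adjusted p = 0.509). Non-endothelial cells held 1515, 3421 and 3923 CPM of Lgals1, above members in every library. Vim, the intermediate filament of mesenchymal and activated endothelial cells, had 1516, 751, 2278 and 1419 CPM in uninjured, 5961 and 3785 in subcritical and 3487 and 2159.7 in critical animals, with no call (adjusted p = 0.134 in subcritical members). Cytoskeletal genes had library medians of 0.46 and 0.14 over 24 genes, and 1 of 21 tested (Lgals1) rose in subcritical and 0 in critical members.

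Isg15, a ubiquitin-like protein induced by interferon, had 265, 148, 234 and 231 CPM in uninjured, 442 and 1014 in subcritical and 294 and 516 in critical animals. It rose in subcritical members (edgeR log2 1.73 ± 0.41, adjusted p = 0.0353, and 0.0807 without mixed droplets). Of 31 interferon response genes 20 were higher in each injured library (medians 0.31 and 0.23), and 1 of 7 tested (Isg15) rose in subcritical and 0 in critical members. B2m, the light chain of MHC class I, had 1324, 1265, 1930.4 and 2440.2 CPM in uninjured, 1656 and 2974 in subcritical and 1513 and 1784 in critical animals, and the groups overlapped. Class I genes had medians of 0.23 and −0.23, with 0 of 11 called in either comparison.

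H2afz, a histone variant, had 361, 339.9, 404 and 398 CPM in uninjured, 662 and 1081 in subcritical and 294 and 235 in critical animals. It rose in subcritical members (edgeR log2 1.17 ± 0.29, adjusted p = 0.0417, and 0.0614 without mixed droplets), while the critical animals lay below the uninjured ones with no call. Tubb5, a tubulin, had 217, 281, 369 and 426 CPM in uninjured, 607 and 1081 in subcritical and 420.2 and 329 in critical animals (adjusted p = 0.0539). The 3 richest of 92 subcritical members held 32.4% of the H2afz and 31.7% of the Tubb5 UMIs. All 10 proliferation genes with a library value were higher in the subcritical library (median 1.40) and 4 of 10 in the critical library (median −0.03). Mki67, a marker of dividing cells, gave 11, 4 and 0 UMIs in the 3 libraries, too few to compare.

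The remaining lists gave no calls in either comparison. Immediate early and stress genes had library medians of −0.36 in the subcritical and −0.40 in the critical library, with 0 of 11 tested genes called. Glycolysis and hypoxia genes had medians of 0.21 and 0.08, with 0 of 4 called. For nuclear genes of oxidative phosphorylation the medians were 0.02 and −0.21, with 0 of 11 called. Transcripts of the mitochondrial genome stood at 0.02 and 0.92, the latter also seen in the median mitochondrial share of members (0.154%, 0.170% and 0.310% in the uninjured, subcritical and critical libraries), with 0 of 5 called.

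**Figure D4:**
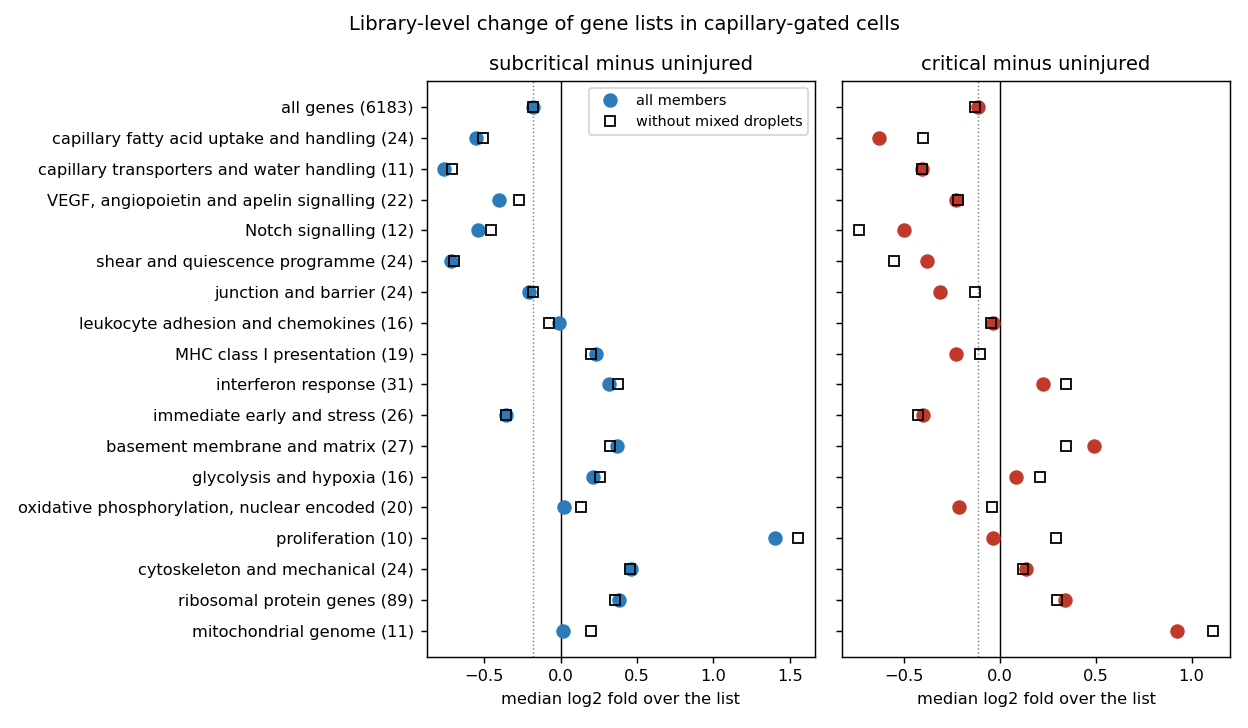
Median log2 difference of each gene list (number of genes measured in brackets) over all members (filled points) and without mixed droplets (open squares), for the subcritical and the critical library against the uninjured one. The dotted line marks all measured genes (−0.18 and −0.11). The fatty acid, transporter and shear lists lie below it and the matrix list above it in both.

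Translation genes were among those called in each comparison. In subcritical members 5 of the 11 genes that rose and 1 of the 15 that fell code for ribosomal proteins, and in critical members 1 of 4 and 2 of 7. Among the 667 tested genes outside the rule 78 do. Without mixed droplets 3 of the 5 that rose in subcritical members lost their call, with an edgeR adjusted p of 0.263 for Rpl32, 0.293 for Rpl10a and 0.160 for Rps9, and so did Rpl10a in critical members (adjusted p = 0.156). Rps2, of the small subunit, had 1588, 1304, 1448 and 1398 CPM in uninjured, 4029 and 3041 in subcritical and 1765 and 2207 in critical animals (edgeR log2 1.31 ± 0.17, adjusted p = 0.000581 in subcritical members, not called in critical ones). Rplp0, of the ribosomal stalk, had 1396, 1088, 1341 and 1286 CPM in uninjured, 3588 and 2433 in subcritical and 2563 and 1925 in critical animals. It rose in subcritical members (log2 1.25 ± 0.22, adjusted p = 0.00687). The elongation factor Eef1b2 rose in subcritical members (301 to 397 CPM in uninjured, 883 and 676 in subcritical animals, adjusted p = 0.0412), and Eef2 rose in critical members (748 to 939 CPM against 1681 and 1502, adjusted p = 0.0262). Neither passed without mixed droplets (adjusted p = 0.0551 and 0.0793).

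Rps27 went the other way, with 1949.5, 1575, 1519 and 1650.1 CPM in uninjured, 331 and 406 in subcritical and 378 and 282 in critical animals. Its log2 fold change was −2.19 ± 0.28 in subcritical (edgeR adjusted p = 0.000581) and −2.29 ± 0.26 in critical members (adjusted p = 0.000354). In other endothelial cells Rps27 had 2197, 317 and 332 CPM and in non-endothelial cells 1355, 216 and 252 CPM over the libraries, so that it was lower throughout the injured libraries. Rps29 fell in critical members, at 2936, 2716, 2640.1 and 3034 CPM in uninjured, 3146 and 2433 in subcritical and 1050.4 and 1268 in critical animals (log2 −1.28 ± 0.19, adjusted p = 0.00220). It was the gene called between critical and subcritical members (log2 −1.26 ± 0.22, adjusted p = 0.0491, and 0.117 without mixed droplets). Non-endothelial cells had 2153, 2695 and 1082 CPM of Rps29, which again set the critical library apart. Ribosomal protein genes have many near-identical processed copies, and how reads were split among these is not given in the sources used here. Over 89 of them the library medians were 0.38 and 0.34.

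Of 25 genes called in subcritical against uninjured members, leaving out the rule gene Timp4, 25 differed in the same direction in other endothelial cells and 23 in non-endothelial cells, where 7 differed by at least as much. For critical against uninjured members these numbers were 11, 11 and 3 of 11. The counts of the same direction go by sign alone. The share of all tested genes with the same sign in these cells was not counted, so that the numbers have no background beside them. The difference of Snrpg in other endothelial cells (log2 −0.10, interval for counting error −0.29 to 0.09) and that of H2afz in non-endothelial cells (0.018, −0.06 to 0.10) could not be told from 0, so that 22 of the 23 in non-endothelial cells had an interval that excluded it. Nothing is read from these counts about the called genes as a set. Within each group the members share a pool, staining and library with these other cells.

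Postn, a fibroblast matrix protein, was called higher in critical members (edgeR adjusted p = 0.0176) on 1 animal, with 1471 CPM in critical animal 2 and 0 in animal 4. Of its 97 UMIs in the critical library 95.9% came from 3 barcodes, and it was not tested without mixed droplets. Lyz2, the lysozyme of macrophages and the only gene of that list with enough UMIs for a library value, had 18.2, 235 and 316 CPM in members, 19.7, 227 and 273 in other endothelial cells and 2459, 8894 and 6345 in non-endothelial cells. Members and other endothelial cells thus carried it at like levels. S100a9, a neutrophil transcript singled out after its values were seen, gave 131 UMIs in uninjured members and 0 in both injured libraries, which allows up to 30.7 and 20.2 CPM, and had 22465, 234 and 46.3 CPM in non-endothelial cells. Such a shared low level of abundant transcripts of other cells was present in every library, and its part in the gene results was not tested beyond the removal of mixed droplets.

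Surface proteins were read in the same animals as counts per 1000 panel counts. Of 130 antibodies tested with edgeR, 1 was higher in subcritical (0.769%), and 3 differed (2.31%) in critical against uninjured members, 2 higher (1.54%) and 1 lower (0.769%). Ly-51, aminopeptidase A, had 8.17, 8.90, 8.68 and 7.91 per 1000 in uninjured, 13.5 and 14.7 in subcritical and 9.37 and 12 in critical animals. It rose in both (log2 0.81 ± 0.11, adjusted p = 0.00907, and 0.55 ± 0.11, adjusted p = 0.0350), and no injured animal reached down to the uninjured ones. The subcritical call was lost without mixed droplets (log2 0.57, adjusted p = 0.108). The critical call was lost without antibody aggregates (4 critical members whose antibody total reached 1000 and came mostly from 1 antibody, adjusted p = 0.0798), with a hashtag share of 70% (0.0655) and without critical animal 2 (0.107) or any 1 uninjured animal (0.0541 to 0.105).

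CD326 (Ep-CAM), an epithelial adhesion molecule, had 5.65, 5.77, 5.57 and 6.20 per 1000 in uninjured, 4.65 and 7.65 in subcritical and 8.40 and 11.7 in critical animals, and rose in critical members (log2 0.99 ± 0.13, edgeR adjusted p = 0.00630), a call lost without uninjured animal 1 or 2 (adjusted p = 0.0722 and 0.0541). Its counts were low, with a median of 1 per member in each library. CD200, an immune-inhibitory protein of endothelial cells, had 57.5, 54.1, 50.3 and 60.6 per 1000 in uninjured, 44.6 and 50.1 in subcritical and 26.1 and 38.2 in critical animals. It fell in critical members (log2 −0.59 ± 0.10, adjusted p = 0.0241). The CD200 call was lost without antibody aggregates (log2 −0.37, adjusted p = 0.185), with a hashtag share of 70% (0.0733) and without critical animal 2 (0.105), subcritical animal 2 (0.0582) or uninjured animal 1, 2 or 4 (0.0816 to 0.105). The Cd200 transcript had 385, 961, 532 and 790.1 CPM in uninjured, 331 and 406 in subcritical and 210.1 and 845 in critical animals, with no call.

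CD31, the endothelial adhesion protein encoded by the rule gene Pecam1, had 14.3, 12.6, 12 and 10.8 per 1000 in uninjured, 29.4 and 17.7 in subcritical and 11.8 and 13.4 in critical animals, which missed the threshold in subcritical members (edgeR log2 1.01 ± 0.22, adjusted p = 0.0672). Between critical and subcritical members 0 antibodies were called with edgeR (14 at an unadjusted p under 0.05, and 1 called by DESeq2). IgM stood at 129 per 1000 in critical animal 2 and at 5.35 to 6.70 in the other 7 animals. Without uninjured animal 1 or 2, 0 antibodies were called in critical members. Without critical animal 4, 10 were called, without subcritical animal 4, 6 in subcritical members, and without mixed droplets 0 there.

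**Figure D5:**
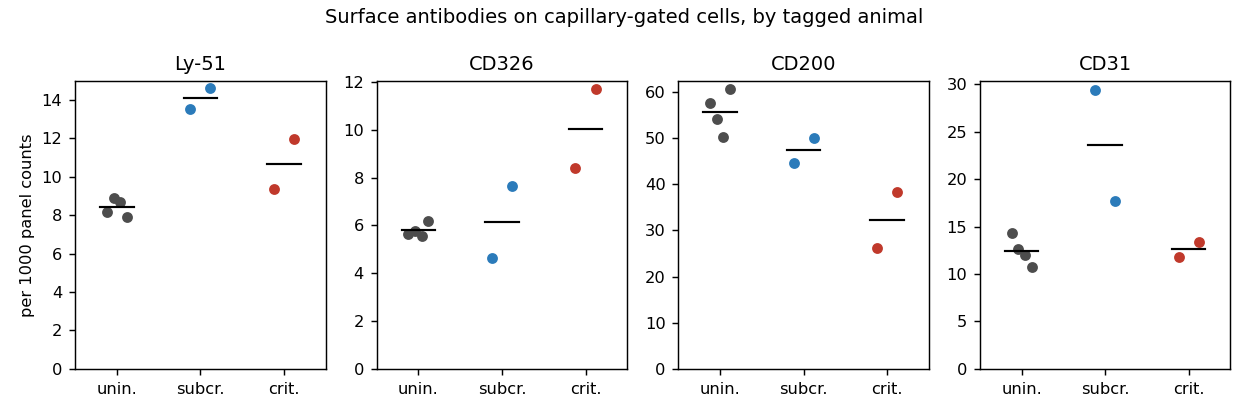
Antibody counts per 1000 panel counts of member cells in each tagged animal (points) with the group mean (line), on linear axes from 0. Ly-51 is higher in all 4 injured animals than in any uninjured one, and CD200 is lowest in the 2 critical animals.

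Whether injury changed resting capillary cells otherwise than the rest of the endothelium was tested as an interaction in 7 animals with at least 10 cells of both kinds, over 2678 genes. For critical against uninjured, 4 genes (0.149%) differed, 2 upwards (0.0747%) and 2 downwards (0.0747%), among them the rule gene Timp4, from which nothing is read. Of the others, Lgals1 differed by −2.03 on the log2 scale (edgeR adjusted p = 0.00631), so that it rose less in members than in other endothelial cells. In critical animals 2 and 4 members held 504 and 282 CPM (12 and 6 UMIs) and other endothelial cells 1315 and 641. In uninjured animals 2, 3 and 4 members held 115, 263 and 154 CPM and other endothelial cells 61.9, 162 and 121. Whole libraries, which also hold untagged cells, showed a smaller difference. Their levels were 137, 705 and 633 CPM in members and 160.5, 843 and 1110.5 in other endothelial cells. Bgn, a matrix proteoglycan of fibroblasts, differed by 2.23 (adjusted p = 0.00311) and Myl9, a contractile protein of mural cells, by −10.63 (edgeR adjusted p = 1.61e-08), a fitted value that is no bound because both critical animals were at 0 in members. Both belong to transcripts of other cell types. The 3 richest members held 84.2% of the Bgn UMIs of the critical library. Members held 1975 CPM of it in critical animal 2 and 141 (3 UMIs) in animal 4, against 572 and 163 in other endothelial cells. Myl9 gave 191, 10 and 7 UMIs in members of the 3 libraries. In other endothelial cells Myl9 was higher in both critical animals than in the uninjured ones. For subcritical against uninjured, 1 gene (0.0373%) differed, the histone gene Hist1h2ae (log2 5.08, edgeR adjusted p = 0.00331), of which 88.2% of 17 subcritical UMIs came from 3 members. In other endothelial cells Hist1h2ae gave 85, 0 and 32 UMIs in the uninjured and 6 and 23 in the subcritical animals. DESeq2 called 1 gene and 0 genes. Fabp4, Aqp1, Gng11 and Sparc were not called in this test. In surface protein, 0 of 133 antibodies differed between members and other endothelial cells over the animals by edgeR (10 at an unadjusted p under 0.05, and 0 by DESeq2).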

How the data were processed

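The deposited files are 3 matrices of raw UMI counts, 1 per group, made by the authors with Cell Ranger (cellranger-6.0.2 per the file headers) and holding 32285 genes and 142 antibody features, of which 4 are hashtags. The GRCm39 build (mm39) and the tools bcl2fastq and Cell Ranger are listed in the submitters' processing notes. All values used here are these counts, and no cell was removed by a doublet caller. The cells, genes and lists described were chosen with earlier results of these data known, and support from the same data is not independent.

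Members were found by the rule on raw counts. Hashtags were assigned with a mixture model per hashtag (posterior of at least 0.9). Raw counts were summed per animal with at least 10 members and tested over all genes in 1 fit of 8 animals with edgeR 4.0.16 (TMM, filterByExpr, robust glmQLFit and glmQLFTest, adjusted p under 0.05 by Benjamini-Hochberg) in R 4.3.3. Antibody counts were tested likewise, with a mean of at least 10 counts per animal. DESeq2 1.42.0 served as an alternative. The interaction fit held the animal's members and its other endothelial cells. Fold changes over whole libraries used a pseudocount of 1 CPM and exact intervals for counting error only. Reads are not independent molecules beyond their UMIs, and the intervals do not cover differences between animals. The fit was tested on simulated data. Python 3.11.15, numpy 2.4.6 and scipy 1.17.1 were used for the rest.

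Member UMIs summed to 1097289, 97859 and 148585 in the uninjured, subcritical and critical libraries, and to 41549 to 338326 per uninjured and 14796 to 23800 per injured animal. Named genes are up to 10 per direction by size of change among called genes whose animals do not overlap and reach 50 CPM, then up to 4 of each list by smallest p. Other named genes are said to be so. Promoter sequences are from the RefSeq table of GRCm38.p6, a build other than that of the counts, and are matched by symbol.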

Additional observations from a re-analysis of the deposited data

Results flagged for a closer look

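In uninjured members the highest animal stood apart for Sparc, at 2922.6 CPM against 2349 to 2376 in the other 3, with a gap of 0.952 of the whole range. It was 1 of 30 groups of 4 animals looked at, and chance flags about 1 in 20. It lies below every injured animal.

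For 4 genes the difference between injured and uninjured animals was not the same in resting capillary cells and other endothelial cells by edgeR's interaction test with Benjamini-Hochberg adjustment. Hist1h2ae differed by 5.08 on the log2 scale for subcritical against uninjured (adjusted p = 0.00331). In members it gave 1 and 7 UMIs in the 2 subcritical animals and 0, 2 and 2 in the 3 uninjured ones. In other endothelial cells it gave 6 and 23 UMIs in the subcritical animals and 85, 0 and 32 in the uninjured ones. The difference thus rests on the levels in both kinds of cells. For critical against uninjured Lgals1 differed by −2.033 (adjusted p = 0.00631), Bgn by 2.229 (adjusted p = 0.00311) and Myl9 by −10.63 (adjusted p = 1.61e-08). Myl9 gave 0 UMIs in members of both critical animals and 85, 75 and 7 in those of the uninjured ones. In other endothelial cells Myl9 gave 10 and 19 UMIs (143 and 206 CPM) in the critical animals. There the uninjured animals had 11, 1 and 3 UMIs (40.05, 7.035 and 17.2 CPM), so that this difference too rests on both kinds of cells. Bgn was higher in members than in other endothelial cells in critical animal 2 and not in critical animal 4. Mural transcripts moved with Myl9 and fibroblast transcripts with Bgn in members, as the sums of those lists show, and their part in these results was not tested.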

How the results depend on the processing

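Calls depended most on single animals. With 1 animal left out at a time, genes called ran from 0 to 35 for subcritical against uninjured (0 without subcritical animal 2, 9 without uninjured animal 2), from 2 to 29 for critical against uninjured and from 0 to 2 for critical against subcritical. Antibodies called ran from 1 to 6, from 0 to 10 and from 0 to 7, and from 0 to 1 between members and other endothelial cells. Interaction calls ran from 2 to 11 for critical and from 0 to 8 for subcritical against uninjured. Where this left 1 animal in a group, that animal was assumed to vary like the others.

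The share of members kept its direction when 1 animal was left out, from −45.0 to −38.6 points for subcritical and from −32.5 to −24.9 for critical against uninjured, and from 10.2 to 17.3 for critical against subcritical. With all tagged cells as denominator it was −46.6 and −46.3 points against uninjured, past the threshold, and 0.355 for critical against subcritical (exact p = 1.0). That setting held 4 animals per group, among them the injured ones left out of the main test. It also moves with the number of other cells and, like the main test, uses the rule's own values. Over library endothelial cells, tagged or not, it was −33.4 points for subcritical against uninjured and 3.80 for critical against subcritical.

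Without the filter on low counts 118, 62 and 6 genes were called (subcritical and critical against uninjured, critical against subcritical) and 3 antibodies in subcritical members. Without mixed droplets, an alternative added after seeing the data, 11 genes were called in subcritical against uninjured and 0 in critical against subcritical members, and 0 and 1 antibodies. In critical against uninjured members 17 genes were called with at least 5 capillary UMIs and 28 with cells thinned to 1000 UMIs. Between critical and subcritical members RLE normalization called 2 genes and animals with at least 5 cells 0. DESeq2 called 5, 8 and 1 antibodies, and 1 and 0 interaction genes for critical and subcritical against uninjured. Antibody aggregates removed gave 3 antibodies in subcritical members and 2 higher and 0 lower in critical ones, and a hashtag share of 70% gave 1 in critical members. The cause of these changes was not tested, except that a count without a filter covers more genes.

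Library log2 differences that changed sign were Ccn1 in the critical library (−0.66 in tagged members, −0.52 without mixed droplets), Cxcl12 (0.30 and 0.053), Cox5b in the subcritical library (−0.24 in tagged members), and Ly6c1 (0.12) and Ptprb (0.23) in tagged critical members. Without mixed droplets Mgp was −3.97 in the subcritical library, Mmp2 −0.98 in both and Rgs5 1.42 in the critical library. Of the other library values 839 moved by less than their interval and 86 by more. Single tested genes kept their side of the threshold in 2900 refits, lost a call in 145 and gained one in 102. No paired analysis was possible because hashtag numbers name animals within a group and pair none across groups. At least 1000 UMIs per cell, and members without other markers, left too few animals for a fit.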
